A study of Mus musculus with 3 samples.

Results

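The genes described here are 10 antigen presentation genes of the mouse small intestine, of 13891 genes measured. They are 6 genes of the class II route (H2-Aa, H2-Ab1, H2-Eb1, Cd74, H2-DMa and H2-DMb1) and 4 of class I (B2m, H2-K1, H2-D1 and H2-Q1). They were taken by their known roles in antigen presentation, with earlier results of these data known, and their levels were followed across classes of intestinal cells and across the 3 libraries of the study. All 10 were detected, with 2533 UMIs (H2-DMb1) to 246511 UMIs (B2m) over 12653 cells. A UMI is a unique molecular identifier, so that each captured RNA molecule is counted once.

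The cells came from male ICR mice, an outbred strain, which were 3 weeks old at the start. The AOS 0 group was the control and received neither agent, the B + A 0 group received a single injection of busulfan (40 mg/kg), and the B + A 10 group received the same busulfan and alginate oligosaccharides (AOS, 10 mg/kg by gavage). Dosing ran for 2 weeks in all groups. Busulfan is an alkylating anticancer drug that damages dividing cells, including those of intestinal crypts, and AOS are short chains cut from the seaweed polymer alginate. Cells of 6 mice were pooled into 1 droplet library per group. With a single library each, the groups could not be tested against each other, and every interval given is at 95% and covers counting error only. Where values of the 3 libraries follow each other, their order is AOS 0, then B + A 0, then B + A 10. One label field of the deposited records names the B + A 0 library as AOS10 and the B + A 10 library as B+A0, while the titles, descriptions and treatment fields match each other and were followed here.

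The libraries held 4106, 3195 and 5352 cells with a median of 7371, 6407 and 3505 UMIs per cell. Cells were grouped into 21 clusters without using the antigen presentation genes, and 11 classes were named from marker genes, each called "-like". They held 1206 stem-like, 2122 cycling crypt-like, 1072 early, 2607 mid, 882 mature and 935 ileal enterocyte-like, 2037 goblet-like, 424 Paneth-like, 153 enteroendocrine-like, 28 tuft-like and 382 T cell-like cells. A further 805 cells in 2 clusters stayed unnamed and enter no class value. The stem-like class held 2 clusters, 551 cells led by Olfm4 and Lgr5 and 655 cells in which mitotic genes such as Cenpf and Top2a stood beside Olfm4 among the leading genes. Marker RNA of other cells was higher in both busulfan libraries than in AOS 0: in stem-like cells the 10 T cell markers in the table made up 174, 605 and 719 CPM (UMIs per 1000000 UMIs of the class), and the 14 Paneth markers 3262, 8449.9 and 5250.1. The part of such RNA in the differences between libraries was not tested. Between 17 and 34 cell barcodes were shared by each pair of libraries. The 11 stem markers summed to 6086, 5372 and 5319 CPM in stem-like cells and to 101, 157 and 194 in mature enterocyte-like cells.

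MHC class I molecules sit on nearly all nucleated cells and show peptides made inside the cell to CD8 T cells. A heavy chain (here H2-K1, H2-D1 and the non-classical H2-Q1) pairs with the light chain B2m. MHC class II molecules show peptides from taken-up material to CD4 T cells. H2-Aa and H2-Ab1 are the alpha and beta chains of the I-A molecule, H2-Eb1 is the beta chain of I-E, Cd74 is the invariant chain that guides class II to the endosome and fills its groove, and H2-DMa and H2-DMb1 form the H2-DM molecule that exchanges the Cd74 fragment for peptide. Class II is best known from B cells, dendritic cells and macrophages, but the gut epithelium also makes it, where interferon gamma raises it through the co-activator CIITA.

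In the GENCODE annotation of GRCm38, which is mm10, 8 of the 10 genes lie in the MHC of chromosome 17. H2-Aa spans chr17:34282744-34287823 on the minus strand, H2-Ab1 chr17:34257689-34269419, H2-Eb1 chr17:34305867-34316674, H2-DMa chr17:34119541-34139101, H2-DMb1 chr17:34153072-34160230, H2-K1 chr17:33996017-34000347 on the minus strand, H2-D1 chr17:35262730-35267499 and H2-Q1 chr17:35320405-35325099. B2m lies at chr2:122147686-122153083, and Cd74 lies outside the MHC. The 3′ reads were assigned to this reference, which is of the C57BL/6 haplotype. The H2 genes are highly polymorphic and many are near-copies of each other, and each library pools 6 outbred mice, so for a single H2 gene an allele that the reference counts poorly and an effect of treatment cannot be told apart. H2-Q1 and its neighbour H2-Q2 can share reads.

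The promoters of class II and classical class I genes share an X box, bound by the RFX complex, and a Y box, bound by NF-Y, and the class I heavy chains also carry an interferon-responsive element. These stretches are shown because members of both classes share them. In the RefSeq windows of GRCm38.p6, which run from 250 bases before to 50 bases after a gene's start, the searched letters were GNNACT, then 1 or 2 bases, TGA, 12 to 30 bases, and ATTGG, on both strands, and TTTCACTTC for the interferon type. The letters were chosen after the members' windows had been read. Capitals mark these letters, and every sequence is written from 5′ to 3′ on the gene's strand, from chr17:34287861-34287910 (H2-Aa, minus strand), chr17:34305770-34305818 (H2-Eb1), chr17:34153091-34153140 (H2-DMb1), chr2:122147595-122147644 (B2m), chr17:34000353-34000443 (H2-K1, minus strand) and chr17:35262938-35263028 (H2-D1). RefSeq starts differ from the GENCODE starts for some genes, so that the H2-DMb1 and H2-D1 stretches lie inside the GENCODE spans given above.
H2-Aa: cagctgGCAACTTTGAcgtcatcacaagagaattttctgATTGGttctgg
H2-Eb1: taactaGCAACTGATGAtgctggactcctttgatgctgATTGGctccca
H2-DMb1: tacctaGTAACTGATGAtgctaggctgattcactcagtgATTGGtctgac
B2m: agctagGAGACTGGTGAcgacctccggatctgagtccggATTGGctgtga
H2-K1: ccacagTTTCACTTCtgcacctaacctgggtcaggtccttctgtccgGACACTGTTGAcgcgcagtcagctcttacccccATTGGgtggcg
H2-D1: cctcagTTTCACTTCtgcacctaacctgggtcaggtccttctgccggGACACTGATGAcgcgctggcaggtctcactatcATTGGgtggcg
The X-type and Y-type letters lay 21 to 23 bases apart in all 6 windows. Over all 32851 windows, 53 (0.161%) held the combined letters, 166 (0.505%) held TTTCACTTC and 37.4% held ATTGG alone. Neither of the 2 windows of H2-DMa held the combined letters, and no window was used for H2-Ab1, H2-Q1 and Cd74. A match is a description of the letters, not a measured binding site.

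Levels in CPM are UMIs of a gene summed over the cells of a class, divided by all UMIs of that class. The protocol counts 3′ ends, 1 per molecule, so levels of different genes were compared without scaling by length. Along the named classes from stem-like to mature enterocyte-like, class II RNA was highest at the ends and lowest in mid enterocyte-like cells. The 6 class II genes together made up 2959 CPM in stem-like cells of AOS 0 (2902 to 3016), 2007 in B + A 0 (1954 to 2062) and 2176 in B + A 10 (2117 to 2236). In mid enterocyte-like cells the sums were 1060.3, 597 and 898, and in mature enterocyte-like cells 2449.8, 1498 and 1741. The stem-like level was thus above the mid level by 2.79-fold (2.70 to 2.88), 3.37-fold (3.20 to 3.54) and 2.42-fold (2.32 to 2.53). The mature level was in turn 2.31-fold, 2.51-fold and 1.94-fold above mid. Each library showed this dip on its own, although 3 libraries could not give a two-sided exact sign test p below 0.25. The mid clusters, led by Ms4a18 and Il18, by Fabp1 and Rbp2 and by S100g and Reg1, held 935, 850 and 779 CPM over all libraries. Of the early clusters, that with Fabp6 among its leading genes held 1396 and the other 896. Position along the length of the gut was not separated from the crypt-villus order.

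The classes between fell into the same order in each library. Cycling crypt-like cells held 1633, 1290.5 and 1416 CPM of class II, and early enterocyte-like cells 1324, 811 and 1050.1. Ileal enterocyte-like cells, marked by the bile acid genes Fabp6 and Slc10a2, held 2671, 1557 and 2119.8. Ileal and mature enterocyte-like cells were close neighbours in the order: the ratio of ileal to mature was 1.09 (1.05 to 1.14) in AOS 0 and 1.22 (1.15 to 1.29) in B + A 10, but its interval held 1 in B + A 0 (1.04, 0.974 to 1.11). Stem-like over ileal was 1.11 and 1.29 in AOS 0 and B + A 0 and 1.03 (0.980 to 1.08) in B + A 10. Stem-like cells were above mature enterocyte-like cells by 1.21-fold (1.16 to 1.26), 1.34-fold (1.26 to 1.42) and 1.25-fold (1.18 to 1.32). Within the stem-like class the cluster with mitotic genes held 2596, 1788 and 1976 CPM of class II and the other 3902, 2502 and 2517. The gap to mature cells depended on the clustering, which changed both the stem-like and the mature class. At a lower cluster resolution, with 515 stem-like and 1696 mature cells, it was 2.27-fold, 2.37-fold and 2.0-fold. Without joining the libraries it was 0.891 in B + A 0, where only 5 cells remained mature.

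Goblet-like and Paneth-like cells held little class II RNA as a share of all their UMIs. Goblet-like cells held 401, 301 and 333 CPM, and Paneth-like cells 331, 304 and 279. Stem-like cells were 7.38-fold, 6.66-fold and 6.53-fold above goblet-like cells. Enteroendocrine-like cells lay between at 893, 969 and 669, from 65, 32 and 56 cells. The tuft-like cells gave 5, 4 and 15 class II UMIs in all, too few for an order. On this scale goblet-like cells were above Paneth-like cells in AOS 0 (1.21-fold, 1.11 to 1.32) and B + A 10 (1.19-fold, 1.08 to 1.32) and within counting error in B + A 0 (0.990, 0.913 to 1.07). Defensin, ribosomal protein and mitochondrial RNA made up 62.5% to 65.9% of Paneth-like UMIs. As CPM of the remaining UMIs Paneth-like cells held class II sums of 907, 811 and 819 against 453, 344 and 381 in goblet-like cells. Mid enterocyte-like cells held 1169, 662 and 990 on that scale, below Paneth-like cells in B + A 0 only.

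**Figure D1:**
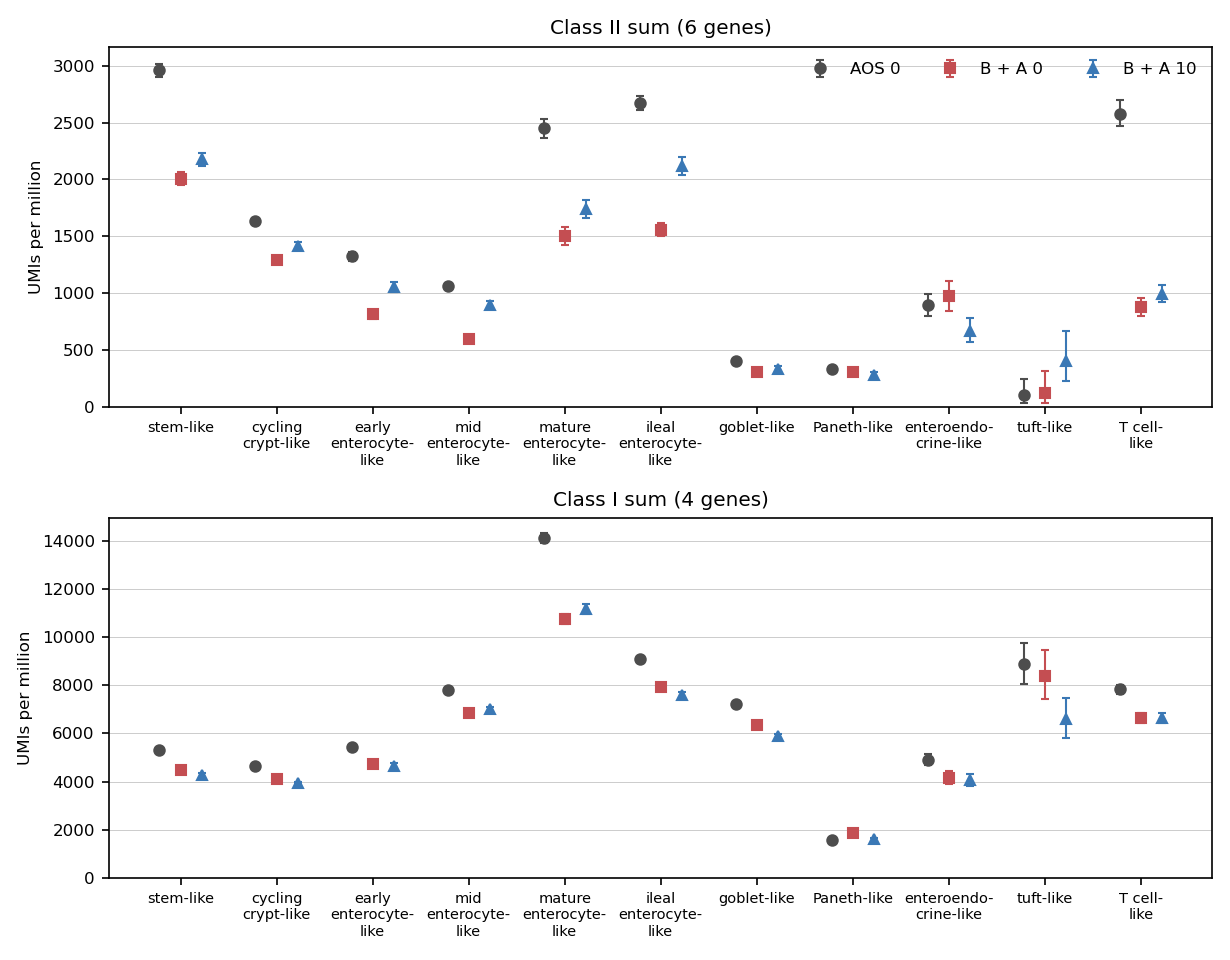
Summed level of the 6 class II genes and of the 4 class I genes (CPM) in each class and library, 1 point per library with its exact Poisson interval. Class II dips in mid enterocyte-like cells (1060.3, 597 and 898) between stem-like and mature enterocyte-like cells, while class I climbs to 14127, 10754 and 11177 in mature enterocyte-like cells.

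Of 7 B cell markers, 5 were in the table, and their sum ran from 0 to 4.65 CPM in the stem-like, cycling, enterocyte-like, goblet-like and Paneth-like classes of the 3 libraries, with Ms4a1 at 0 in all of these classes. Of 10 myeloid and dendritic markers 7 were in the table, at 3.84 to 25.9 CPM in those classes, with the dendritic receptor Flt3 at 0 in all of them. The myeloid sum was higher in both busulfan libraries than in AOS 0 in each of these classes. It includes Fcer1g, which was also a leading gene of both T cell-like clusters. Leaving out cells with a UMI of these markers, Fcer1g aside, was among the alternatives for the ratios. Over all alternatives the stem-like class II ratio of B + A 0 over AOS 0 ran from 0.611 to 0.746. The part of B cell or myeloid RNA in the class II levels themselves was not tested.

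Class I had no dip in mid enterocyte-like cells. The 4 class I genes summed to 5299, 4471 and 4291 CPM in stem-like cells. In mid enterocyte-like cells they summed to 7790.3, 6859 and 7004, and in mature enterocyte-like cells to 14127 (13926 to 14331), 10754 (10546 to 10964) and 11177 (10977 to 11379.8). Mature enterocyte-like cells thus held 2.67-fold (2.61 to 2.72), 2.41-fold (2.34 to 2.47) and 2.60-fold (2.54 to 2.68) the stem-like level. Ileal enterocyte-like cells held less than mature ones, at 9084, 7925 and 7586. Cycling crypt-like cells were the lowest along the axis with 4627, 4088 and 3942.

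Among the other classes, goblet-like cells were rich in class I and poor in class II, with class I sums of 7221, 6338 and 5878. T cell-like cells held 7841, 6644 and 6645, tuft-like cells 8894, 8399 and 6605, and enteroendocrine-like cells 4911, 4154 and 4047. Paneth-like cells were the lowest of the 11 classes, with 1561, 1857 and 1599. On the scale without defensin, ribosomal protein and mitochondrial genes they held 4274, 4947 and 4687, still below the other classes in each library.

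Gene by gene, all 4 class I members were at least 2-fold higher in mature enterocyte-like than in stem-like cells in each of the 3 libraries. Of 7912 genes with at least 100 UMIs in both classes together, 17.3% were. None of the 6 class II members passed 2-fold in either direction in all 3 libraries, and 30.7% of the genes tested were at least 2-fold higher in stem-like cells. On the other scale every ratio of stem-like to mature cells is larger by 0.45 to 0.47 on the log2 scale. The class I sum was then 1.96-fold, 1.76-fold and 1.88-fold higher in mature than in stem-like cells, under 2-fold, and the class II sum 1.65-fold, 1.83-fold and 1.73-fold higher in stem-like cells. Of the single members, H2-Q1 kept its 2-fold call in all 3 libraries on that scale, B2m, H2-K1 and H2-D1 did not, and H2-Eb1 was then over 2-fold higher in stem-like cells (2.74-fold, 3.6-fold and 2.46-fold).

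**Figure D2:**
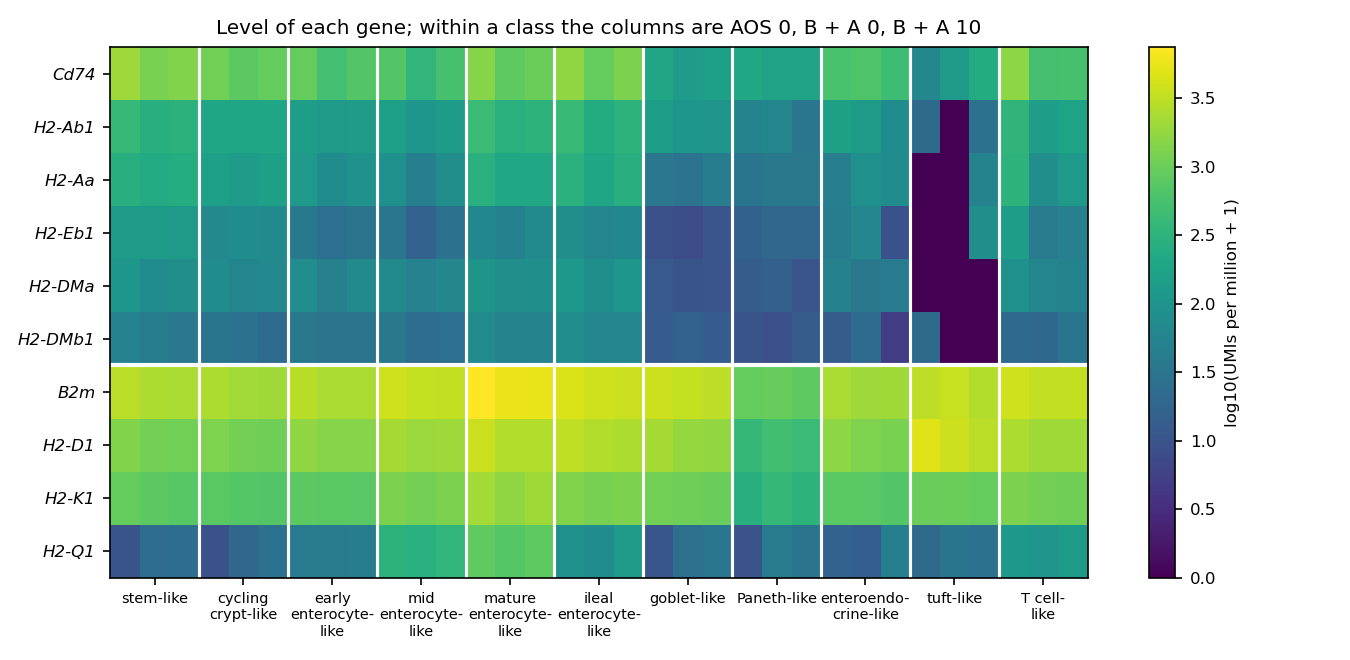
Level of each of the 10 genes in each class, with the 3 libraries side by side (log10 scale of CPM plus 1). Cd74 and B2m are the most abundant members of their groups, and H2-Q1 stands out in mid (318, 286 and 353) and mature enterocyte-like cells (846, 707 and 827).

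Cd74 supplied most class II UMIs, with 63.2% of the sum over all cells. It stood at 1998, 1249 and 1379 CPM in stem-like cells, at 683, 354 and 568 in mid and at 1483, 826 and 1010.04 in mature enterocyte-like cells. Stem-like cells were the highest class for Cd74 in each library, above mature enterocyte-like cells by 1.35-fold, 1.51-fold and 1.37-fold.

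H2-Eb1 leaned further to the stem-like side. Its levels were 127, 131 and 125 in stem-like and 63.1, 49.5 and 70.5 in mature enterocyte-like cells, a stem-like excess of 2.01-fold (1.59 to 2.57), 2.64-fold (1.94 to 3.66) and 1.77-fold (1.37 to 2.32). On the scale of all UMIs the I-A chains were nearly level between both ends, and without ribosomal protein, mitochondrial and defensin genes they were higher in stem-like cells, by 1.24-fold to 1.36-fold for H2-Ab1 and 1.30-fold to 1.67-fold for H2-Aa. H2-Ab1 stood at 397, 282 and 309 in stem-like and 437, 284 and 316 in mature cells, and the interval of its ratio held 1 in each library. H2-Aa stood at 279, 230.4 and 249 in stem-like and 292, 203 and 207 in mature cells, with a stem-like excess beyond counting error in B + A 10 only (1.21-fold, 1.03 to 1.41).

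The H2-DM chains, which load peptide, differed from each other. The interval of the H2-DMa ratio held 1 in each library, at 107, 72.4 and 80.3 in stem-like and 102, 82.2 and 84.6 in mature cells. H2-DMb1 was at 51.0, 43.0 and 33.4 in stem-like and 72.8, 52.7 and 53.6 in mature cells, so that mature cells were higher by 1.43-fold (1.10 to 1.84) and 1.60-fold (1.12 to 2.28) in AOS 0 and B + A 10 and by 1.22-fold (0.861 to 1.72) in B + A 0. On the other scale the stem-like over mature ratio of H2-DMb1 was 0.956, 1.12 and 0.863, which turned its direction in B + A 0, and that of H2-DMa was 1.20 to 1.43. All 6 class II genes were above their mid level in mature enterocyte-like cells in each library, from 1.38-fold for H2-DMa in B + A 10 to 4.47-fold for H2-Aa in B + A 0.

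Of the class I genes, B2m was the most abundant, at 3005, 2471 and 2427 CPM in stem-like and 7504, 5690.5 and 5610.2 in mature enterocyte-like cells. H2-K1 stood at 921, 805 and 728 in stem-like and 2167, 1711 and 2068 in mature cells. H2-D1 stood at 1364, 1171 and 1111 in stem-like and 3610.5, 2646 and 2672 in mature cells. The mature over stem-like ratios of these genes were near each other, from 2.12-fold (H2-K1, B + A 0) to 2.84-fold (H2-K1, B + A 10).

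H2-Q1 was far steeper. It stood at 9.31, 23 and 24.1 CPM in stem-like cells, 37.3, 40.2 and 43.2 in early, 318, 286 and 353 in mid, 846, 707 and 827 in mature and 87.6, 75.4 and 119 in ileal enterocyte-like cells. Mature cells were 90.9-fold (64.4 to 133), 30.7-fold (23.7 to 40.6) and 34.3-fold (26.3 to 45.7) above stem-like cells. In stem-like cells 12 markers of mature enterocytes summed to 256, 595 and 714 CPM. Per 1000 UMIs of these markers there were 36.3, 38.7 and 33.7 H2-Q1 UMIs in stem-like and 40.5, 47.5 and 49.7 in mature enterocyte-like cells. The intervals of both overlapped in AOS 0 (24.9 to 51.4 and 38.1 to 43.0) and in B + A 0 (29.5 to 49.8 and 43.9 to 51.3) but not in B + A 10 (25.4 to 43.9 and 46.4 to 53.2). Goblet-like cells held 13.4, 24.4 and 28.8 and cycling crypt-like cells 22.9, 29.8 and 36.2, with intervals below the mature one in each library. Paneth-like cells held 31.1, 38.3 and 37.1, with intervals that overlapped the mature one in each library. The part of stray RNA in these levels was not tested.

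H2-Ab1 made up a larger share of the class II sum in goblet-like than in stem-like or mature enterocyte-like cells. Cd74 made up 65.1% of class II UMIs in stem-like cells and 58.7% in mature enterocyte-like cells of all libraries together, and H2-Ab1 13.8% and 18.2%. In goblet-like cells Cd74 made up 46.8% and H2-Ab1 34.3%. The chains of I-A pair one to one, yet in goblet-like cells there were 4.21 (3.52 to 5.07), 3.71 (2.99 to 4.64) and 2.47 (2.01 to 3.05) H2-Ab1 UMIs per H2-Aa UMI. In stem-like cells there were 1.42 (1.31 to 1.55), 1.22 (1.10 to 1.36) and 1.24 (1.11 to 1.38), in mature enterocyte-like cells 1.5, 1.39 and 1.53, and in Paneth-like cells 1.69, 1.68 and 0.943. The goblet-like intervals lay above those of these 3 classes in each library. Mid enterocyte-like cells stood at 1.74 (1.55 to 1.95), 2.36 (1.96 to 2.87) and 1.71 (1.49 to 1.96), and the interval of enteroendocrine-like cells in AOS 0 (3.65, 2.11 to 6.65) overlapped the goblet-like one.

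H2-Ab1 was level over the goblet-like clusters while the other chains were not. In the 3 goblet-like clusters H2-Ab1 stood at 133, 105 and 124 CPM, whereas Cd74 stood at 68.8, 104 and 365 and H2-Aa at 11.9, 33.0 and 63.7 in the same clusters (led by Ido1 and Clca1, by Klk1 and Rgs2, and by Ccl9 and Agr2). All classes of a library come from the same pool of mice.

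**Figure D3:**
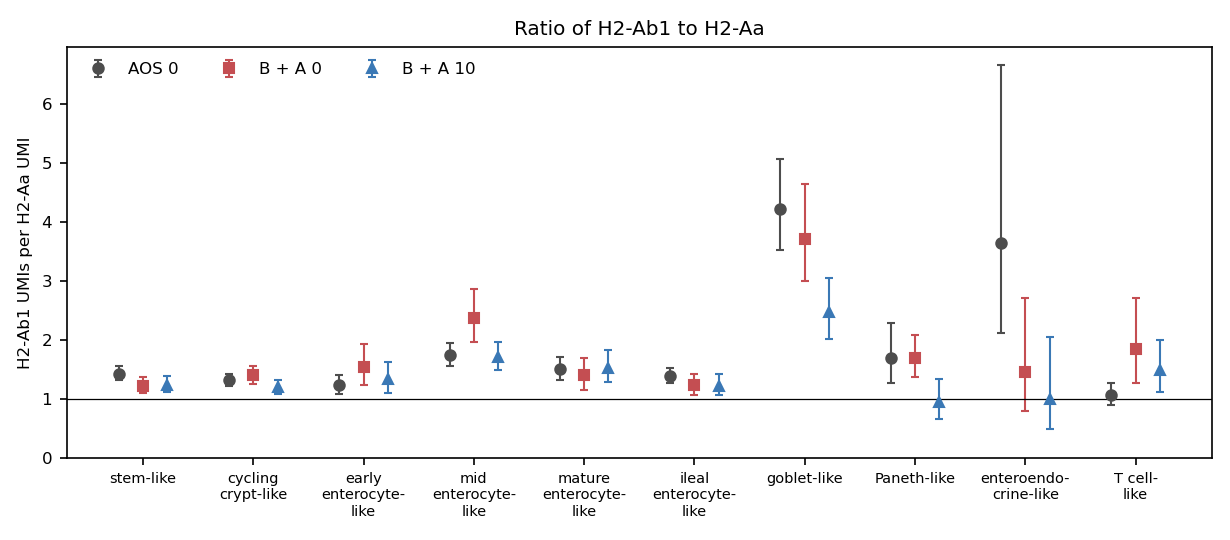
H2-Ab1 UMIs per H2-Aa UMI in each class and library with exact binomial intervals, tuft-like cells left out for their few UMIs. Goblet-like cells stand at 4.21, 3.71 and 2.47, above stem-like (1.42, 1.22 and 1.24) and mature enterocyte-like cells (1.5, 1.39 and 1.53).

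The class I sum had a steadier make-up. B2m supplied 49.3% to 56.3% of it in 10 of the 11 classes, all libraries together, and 38.4% in tuft-like cells. H2-D1 exceeded H2-K1 in every class, from 1.35 H2-D1 UMIs per H2-K1 UMI in Paneth-like to 2.19 in ileal enterocyte-like cells. Tuft-like cells stood apart with 4.13, and the ratio in the single libraries was 5.04, 3.76 and 3.24, from 9, 6 and 13 cells. H2-Q1 supplied 6.55% of the class I sum in mature enterocyte-like and 0.371% in stem-like cells.

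Single cells of a class differed widely in class II. With the 3 libraries together, stem-like cells had a median of 21.0 class II UMIs per 10000 UMIs of a cell. Their 10th percentile was 5.15 and their 90th 53.5. The variance was 11.4 times the Poisson value. Mid enterocyte-like cells had a median of 4.82 with a 90th percentile of 22.9, and the top 10% of cells supplied 44.3% of class II UMIs, against 31.1% in stem-like cells. Class I was more even: mature enterocyte-like cells had a median of 116 per 10000 with a 10th percentile of 81.0 and a 90th of 168, and the top 10% supplied 20.6% of class I UMIs.

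Shares of cells in which a gene was seen depend on depth, so 1000 UMIs were drawn from every cell for this comparison. At that depth 78.4% (74.0 to 82.4), 63.0% (57.5 to 68.3) and 68.5% (64.2 to 72.6) of stem-like cells held a Cd74 UMI. For goblet-like cells the shares were 11.8%, 13.0% and 12.6%, and for T cell-like cells 30.8%, 22% and 27.8%. Without thinning they were 98.2%, 95.3% and 94.7% in stem-like and 44.8%, 37.2% and 33.1% in goblet-like cells, at median depths of 7679, 7464.5 and 3920.0 UMIs and of 7415, 6046 and 3587.5 UMIs. Mature enterocyte-like cells stood between, at 57.2%, 45.9% and 54.9% with thinning. At least 2 of Cd74, H2-Aa, H2-Ab1 and H2-Eb1 were seen together in a large part of stem-like cells: at 1000 UMIs 28.6% held 2 of these genes, 9.95% held 3 and 1.99% all 4, against 3.39%, 0.295% and 0% of goblet-like cells.

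**Figure D4:**
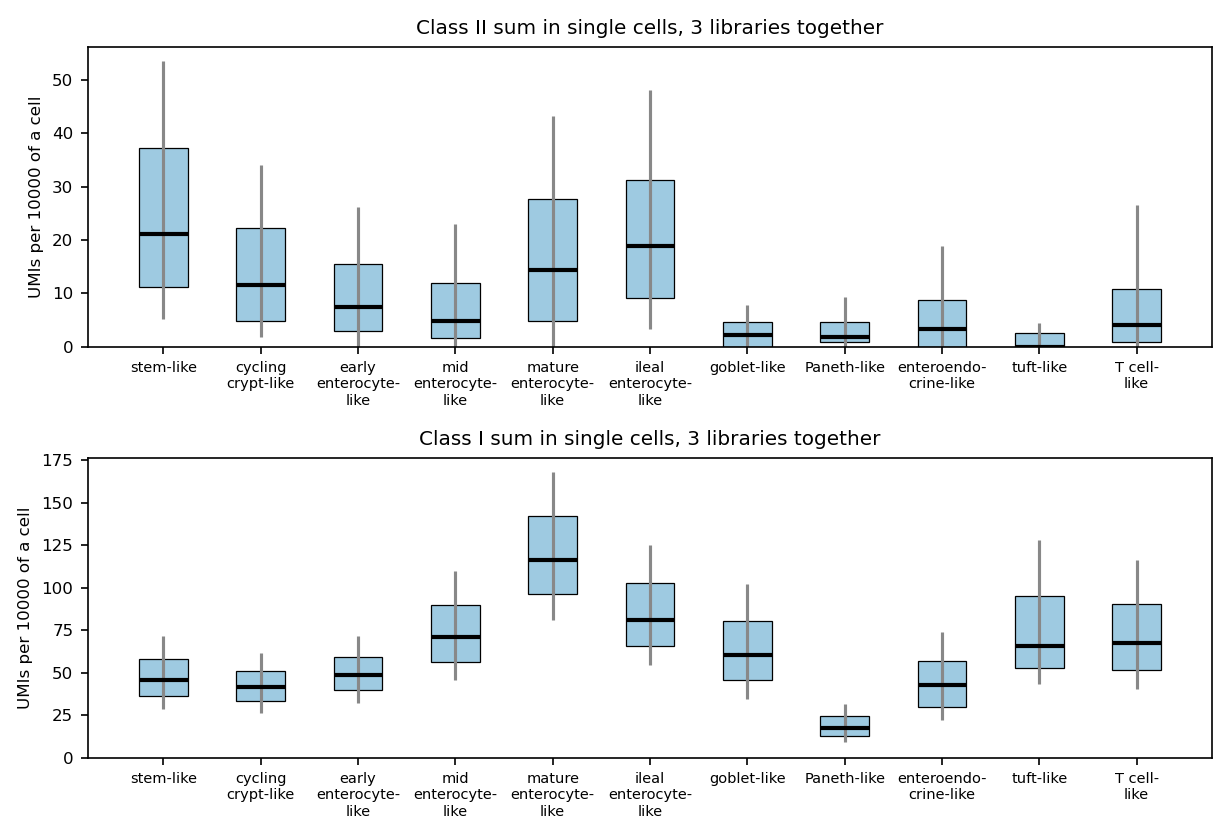
Spread over single cells of the class II and class I sums (UMIs per 10000 UMIs of the cell) in each class, with the 3 libraries together. It is drawn as the 10th to 90th percentile, the quartiles and the median. Stem-like cells range from 5.15 to 53.5 for class II around a median of 21.0, and goblet-like cells have a median of 2.16.

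In every enterocyte-like class, in stem-like and in cycling crypt-like cells, class II RNA was lower in the busulfan library than in the control. The B + A 0 over AOS 0 ratio of the class II sum was 0.679 (0.656 to 0.701) in stem-like, 0.790 (0.766 to 0.816) in cycling crypt-like, 0.613 (0.577 to 0.650) in early, 0.563 (0.535 to 0.592) in mid, 0.611 (0.574 to 0.651) in mature and 0.583 (0.557 to 0.609) in ileal enterocyte-like cells. It was 0.752 (0.697 to 0.811) in goblet-like and 0.919 (0.841 to 1.00) in Paneth-like cells and 1.08 (0.912 to 1.29) in enteroendocrine-like cells. The median over all genes tested was 0.947 in stem-like, 0.961 in mid, 1.01 in mature and 0.95 in ileal enterocyte-like cells. The stem-like, mid and ileal class II ratios stayed below 1 under each alternative clustering, scale and filter tried.

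Cd74 (1249 against 1998 in stem-like cells) was the only one of 9 members tested at least 1.5-fold lower in B + A 0 stem-like cells, at 0.625 (0.600 to 0.652), where 3.0% of 5935 genes were as low. H2-Q1 had under 100 UMIs there and was not tested. In early enterocyte-like cells 3 of 10 members passed (Cd74 0.565, H2-DMa 0.623 and H2-Aa 0.634) beside 2.76% of all genes. In mid enterocyte-like cells 3 of 10 passed (H2-Eb1 0.483, Cd74 0.518 and H2-Aa 0.520) beside 2.31%. In mature enterocyte-like cells 2 of 10 passed (Cd74 0.557 and H2-Ab1 0.649) beside 4.86%, and in ileal enterocyte-like cells 3 of 10 (Cd74 0.544, H2-Ab1 0.583 and H2-Aa 0.658) beside 3.42%. All of these are class II genes, and Cd74 passed in each of the 5 classes. No member passed in cycling crypt-like cells (Cd74 0.723), where 1.94% of 7648 genes did, or in goblet-like cells (Cd74 0.680), where 2.05% of 5172 did.

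Cd74 was below its control level beyond counting error in 9 of the 11 classes, the exceptions being enteroendocrine-like (1.09, 0.875 to 1.34) and tuft-like cells. This breadth was not particular to Cd74: H2-D1 was lower in 10 classes, B2m in 9, H2-K1 in 7 and H2-Q1 in 2. Of all genes tested, 64.3% in stem-like, 61.4% in mid and 48.4% in mature enterocyte-like cells had a ratio under 1, whatever its interval. The other class II genes were less uniform than Cd74. H2-Aa and H2-Ab1 were lower in 7 classes each, H2-DMa in 5 and H2-DMb1 in 2. H2-Eb1 was lower in 4 classes but level in stem-like cells (127 and 131 CPM, ratio 1.03, 0.895 to 1.19, and 0.856 without the cluster with mitotic genes) and higher in cycling crypt-like cells (65.0 and 76.8, ratio 1.18, 1.02 to 1.36). The class II members thus had unlike ratios within stem-like cells, from 0.625 for Cd74 to 1.03 for H2-Eb1.

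Class I was lower by less. The B + A 0 over AOS 0 ratio of the class I sum was 0.844 (0.825 to 0.863) in stem-like, 0.874 in early, 0.880 in mid, 0.761 (0.743 to 0.780) in mature, 0.872 in ileal enterocyte-like and 0.878 in goblet-like cells. In mature enterocyte-like cells B2m, H2-K1, H2-D1 and H2-Q1 had ratios of 0.758, 0.789, 0.733 and 0.836, and none was 1.5-fold lower. Clustering without joining the libraries left 5 mature cells in B + A 0 and a ratio of 1.05. Paneth-like cells went the other way, with 1561 against 1857 CPM and a ratio of 1.19 (1.14 to 1.24). There the median ratio of all genes tested was 1.20 and 21.3% of 2432 genes were at least 1.5-fold higher, while H2-K1 was at 1.37, H2-D1 at 1.29 and B2m at 1.06.

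H2-Q1 was higher in B + A 0 than in AOS 0 beyond counting error in 4 of the 11 classes. It stood at 9.31 in AOS 0 and 23 in B + A 0 in stem-like, 10.1 and 26.1 in goblet-like and 8.73 and 37.2 in Paneth-like cells, ratios of 2.47, 2.59 and 4.26, and the ratio was 2.10 in cycling crypt-like cells. In early enterocyte-like (1.08, 0.797 to 1.45) and enteroendocrine-like cells (0.849, from 3 and 6 UMIs) the interval held 1, and in mid (0.897) and mature enterocyte-like cells (0.836) H2-Q1 was lower. The mature enterocyte markers stood at 256 and 595 CPM in stem-like, 750.2 and 1069 in goblet-like and 281 and 971 in Paneth-like cells of these libraries, and their part in the H2-Q1 ratios was not tested.

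Between the busulfan libraries, the class II sum was higher with AOS beyond counting error in 9 of the 11 classes, not only in the enterocyte-like ones. These include tuft-like cells, from 4 and 15 UMIs, and stem-like cells, whose ratio fell below 1 in 3 alternatives. Of all genes tested, 55.5% in stem-like, 47.7% in mid, 45.2% in mature and 41.2% in ileal enterocyte-like cells had a ratio under 1, whatever its interval. Cycling crypt-like cells stood at 1290.5 in B + A 0 and 1416 CPM in B + A 10, goblet-like cells at 301 and 333. The B + A 10 over B + A 0 ratio of the class II sum was 1.29 (1.21 to 1.39) in early, 1.51 (1.43 to 1.59) in mid, 1.16 (1.08 to 1.25) in mature and 1.36 (1.29 to 1.44) in ileal enterocyte-like cells. In mid enterocyte-like cells 3 of 10 members were at least 1.5-fold higher, H2-Aa (45.5 to 80.1 CPM, 1.76-fold), H2-Eb1 (15.6 to 27.0, 1.72-fold) and Cd74 (354 to 568, 1.61-fold), beside 1.95% of 5909 genes. The B + A 10 levels did not reach those of AOS 0: B + A 10 over AOS 0 was 0.793 in early, 0.847 in mid, 0.711 in mature and 0.794 in ileal enterocyte-like cells. Without joining the libraries the mature ratio of B + A 10 over B + A 0 turned to 0.743, from 23 and 5 cells. Both comparisons share the B + A 0 library, so a low value there lowers the first ratio and raises the second.

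In stem-like cells the difference between the busulfan libraries was small, 1.08 (1.04 to 1.13) for the class II sum and 1.10 for Cd74. It was below 1 in 3 alternatives, with 0.987 when libraries were not joined, 0.959 when the antigen presentation genes were kept for clustering and 0.991 with thinned cells. The class I sum of mature enterocyte-like cells differed by 1.04 (1.01 to 1.07) and was 0.995 with thinned cells. Of its members H2-K1 (1711 and 2068 CPM, 1.21-fold, 1.13 to 1.29) and H2-Q1 (707 and 827 CPM, 1.17-fold, 1.06 to 1.29) were higher there with AOS, while the intervals of B2m and H2-D1 held 1. In enteroendocrine-like cells class II was lower, at 0.690 (0.559 to 0.850), from 221 and 157 UMIs.

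**Figure D5:**
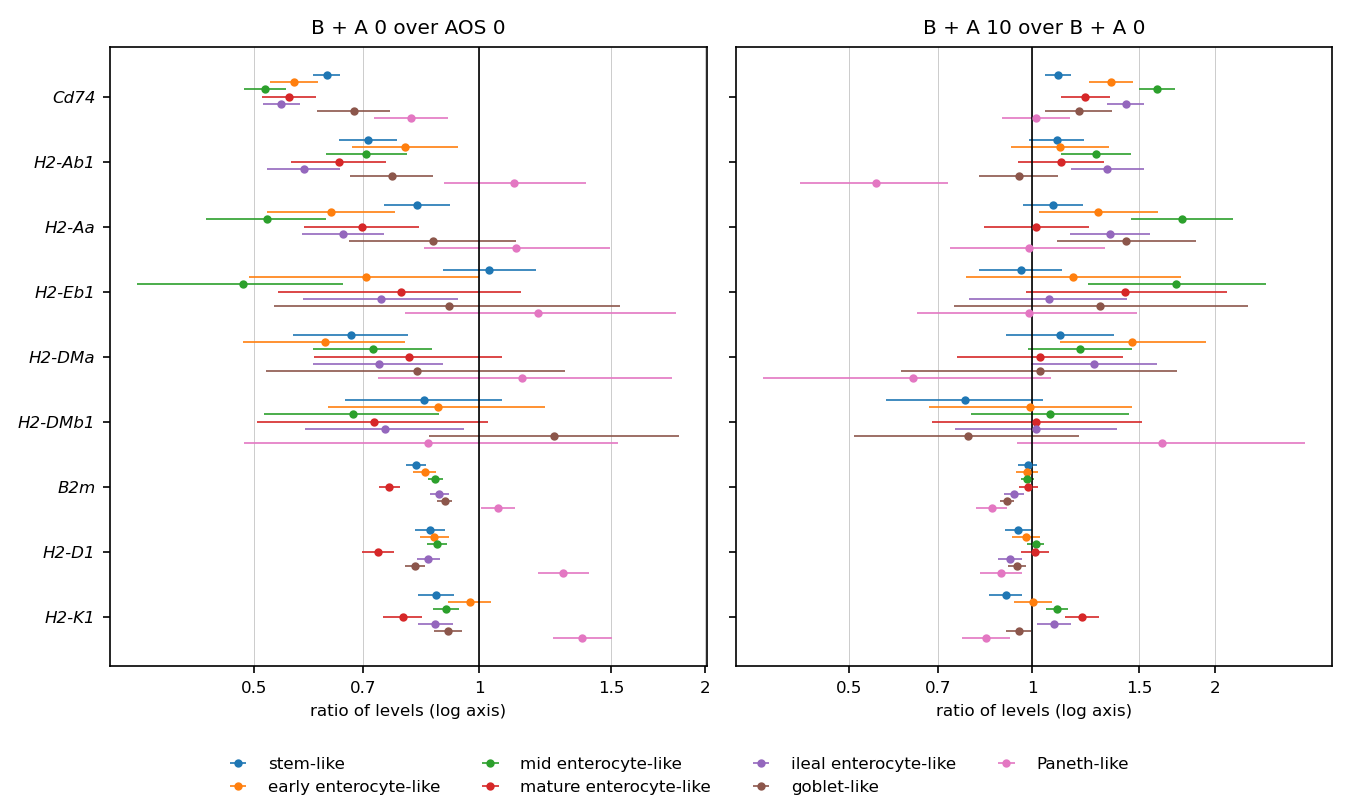
Ratio between libraries of each antigen presentation gene except H2-Q1, which is not drawn (log axis, exact intervals). The classes are stem-like, enterocyte-like, goblet-like and Paneth-like, and the comparisons are B + A 0 over AOS 0 and B + A 10 over B + A 0. Cd74 lies at 0.518 to 0.625 in stem-like, early, mid, mature and ileal cells for the first comparison and at 1.10 to 1.61 for the second.

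The T cell-like class had a class II sum of 2579, 874 and 993 CPM, and the high control value rested on few cells. In that library 5 cells without a UMI of Cd3d, Cd3e or Cd3g held 761 of the 1300 Cd74 UMIs of the class. Of these cells, 3 held 48, 26 and 15 UMIs of B cell markers and the others 27 and 4 of myeloid and dendritic markers. In T cell-like cells with a Cd3 UMI the class II sum was 1049, 883 and 949, from 107, 77 and 171 cells, and the libraries then lay close together. The T cell-like ratio of 0.339 between B + A 0 and AOS 0 is therefore not that of cells with a Cd3 UMI. The T cell-like class also held 44817, 88109 and 65079 CPM of goblet markers and 2550, 2708 and 2833 CPM of mature enterocyte markers. The part of epithelial RNA in its class II and class I levels was not tested.

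Other genes of the pathway were taken by list. Of 15 class II accessory genes 13 were in the table and 7 had enough UMIs. Of those, Rfxap, a subunit of the RFX complex, was at least 2-fold higher in stem-like cells in each library, and Rfxank, another subunit, and Ctss, the protease cathepsin S that cuts Cd74, were at least 2-fold higher in mature enterocyte-like cells. These are 1 and 2 of 7 genes, beside the 30.7% and 17.3% of all genes tested given above, and on the scale without ribosomal protein, mitochondrial and defensin genes Rfxank was under 2-fold in B + A 0 (1.81) and B + A 10 (1.97). Ctss stood at 67.4, 59.7 and 54.9 CPM in stem-like and 291, 191 and 191 in mature cells. Ifi30, a thiol reductase of the endosome, stood at 131, 132 and 126 in stem-like and 181, 180.2 and 154 in mature cells. Lgmn, the endosomal protease legumain, was higher in goblet-like (69.4, 64.4 and 60.2) than in stem-like cells (26.5, 30.8 and 26.2). Ciita, the co-activator of class II genes, was sparse, with levels of 11, 10.0 and 10.6 in stem-like, 10.5, 17.9 and 16.9 in mature enterocyte-like and 1.12, 0.272 and 0.95 in goblet-like cells.

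Of 19 other class I and class I-like genes 15 were in the table and 7 were tested. H2-Q2, H2-T3, H2-T23, H2-Bl and Fcgrt were at least 2-fold higher in mature enterocyte-like than in stem-like cells in each library, also on the other scale, and none went the other way. These 5 of 7 stand beside 17.3% of all genes tested. H2-Q2 had the same shape as H2-Q1, at 44.3, 69.0 and 69.7 in stem-like and 1393, 1233 and 1511 in mature cells. H2-T3 stood at 13.8, 20.8 and 23.7 in stem-like and 110.4, 126 and 129 in mature cells. H2-T23, which encodes Qa-1, stood at 104, 56.8 and 47.7 in stem-like and 420.4, 245 and 186 in mature cells, and at 215, 207 and 179 in T cell-like cells. Its B + A 0 over AOS 0 ratio was 0.546 (0.449 to 0.661) in stem-like and 0.658 in mid enterocyte-like cells. H2-Bl, another class I-like gene, stood at 234, 90.6 and 38.5 in mature enterocyte-like cells. Both belong to the polymorphic region, so pooled alleles and treatment cannot be told apart for them either.

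Of 14 class I peptide loading genes all were in the table and 13 were tested. Only Tapbp, which encodes tapasin, passed, being higher in mature enterocyte-like cells (192, 173 and 189) than in stem-like cells (63.2, 68.6 and 56.6). That is 1 of 13 beside 17.3% of all genes tested, and on the other scale its ratio in B + A 0 was 1.84, under 2-fold. The proteasome activator part Psme2 (869.9, 821 and 766 in stem-like, 1013, 1014 and 881 in mature cells), the immunoproteasome subunit Psmb8 (656, 608 and 548, and 510, 580 and 461) and the endoplasmic reticulum chaperone Calr (570, 659 and 696, and 425, 494 and 468) had no such gap. Of 7 interferon gamma response genes 6 were tested, and Ifngr2, Jak2 and Irf1 were at least 2-fold higher in mature enterocyte-like cells, 3 of 6 beside the same 17.3%. On the other scale Irf1 was under 2-fold in each library (1.53, 1.74 and 1.55). Ifngr2, a chain of the receptor, stood at 67.1, 51.6 and 56.6 in stem-like and 227, 186 and 187 in mature cells. Jak2, a kinase of the receptor, stood at 19.2, 16.7 and 19.9 and at 86.3, 63.2 and 77.0 in the same classes. Ifngr1, the other receptor chain, was below 2-fold. Of 5 co-stimulation genes 4 were in the table (Icosl, Cd274 and Cd40 with the most UMIs) and none had enough UMIs to be tested.

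Over the 11 classes in 3 libraries (33 points on a log2 scale, which share libraries and depth), the levels of members are compared as a description. Pearson correlations between class II members were 0.518 to 0.927, and between class I members 0.452 (H2-D1 and H2-Q1) to 0.983 (B2m and H2-K1). Of 9248 genes outside the lists, those most like the class II sum were Ptprd (0.878), Trim2 (0.872), Haus2 (0.870), Tnfrsf11a (0.859) and Scpep1 (0.849). Not all shared its dip. In stem-like, early, mid and mature enterocyte-like cells of all libraries, Trim2 stood at 117, 146, 129 and 104 CPM. Tnfrsf11a stood at 34.0, 44.1, 44.1 and 50.2, and Scpep1 was nearly level (9.87 to 11.4). Ptprd was lowest in mid (14.0) and Haus2 in early cells (9.42) among these classes. All were lower in goblet-like and Paneth-like cells. Those most like the class I sum were Itm2b (0.969), Nmi (0.947), Gtpbp2 (0.932), Ifi47 (0.928) and Zfand6 (0.928). Itm2b, an integral membrane protein, stood at 440 CPM in stem-like, 1406 in mature enterocyte-like and 179 in Paneth-like cells.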

How the data were processed

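Single-cell RNA was captured with the 10x Genomics 3′ v2 chemistry, and the submitters' notes name Cell Ranger 2.2.0 and mm10. The authors removed cells with fewer than 200 genes and genes in fewer than 3 cells, and deposited natural log values of 1 plus UMIs per 10000 per cell. Every one of the 24333763 deposited values gave a whole UMI count within 0.01, and these counts were used here. Cells were clustered in Seurat 5.3.0 (R 4.3.3) on 2000 variable genes and 20 dimensions at resolution 0.8 after joining the libraries, with 66 antigen presentation and related genes left out. A class needed 3 raised markers, and these naming limits were chosen after the clusters had been seen. Scrublet's own threshold called 15 doublets and no cell was removed. A cluster with over 50% of its cells among the highest 5% of Scrublet scores of each library (597 cells in all) got no name. This left 380 cells with goblet markers unnamed (55.3% called). The other unnamed cluster, of 425 cells, scored as cycling crypt but had goblet markers among its leading genes. Total UMIs were 35258551, 26044381 and 23003083. Levels have exact Poisson intervals, ratios and shares exact binomial ones. Genes counted against the background had at least 100 UMIs. Named genes were the 10 members, those of the fixed lists past 2-fold or with the most UMIs, and the 5 most like each sum. The members and lists were chosen with earlier results of these data known. Alternatives were another resolution, no joining, all genes kept for clustering, means over cells, another scale, thinned cells and leaving out likely doublets. An unplanned alternative left out cells with a UMI of a B cell or myeloid marker other than Fcer1g. The ratios were also run on simulated Poisson counts without added spread between cells. That run cannot show how the intervals behave where cells differ more than Poisson counts. Reads of near-identical H2 genes and of overlapping genes can be split by the counting.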

Additional observations from a re-analysis of the deposited data

Results flagged for a closer look

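In several genes the ratio between libraries lay above 1 beyond counting error in one class and below 1 in another. With 1 library per group the difference between classes was not tested. H2-K1, H2-D1, B2m and H2-Q1 were higher in B + A 0 than in AOS 0 in Paneth-like cells (1.37, 1.29, 1.06 and 4.26) and lower in mature enterocyte-like cells (0.789, 0.733, 0.758 and 0.836). The Paneth-like median ratio of all genes tested was 1.20 in that comparison, above the value of B2m. For H2-K1 the B + A 10 over B + A 0 ratio was 1.21 in mature enterocyte-like and 0.840 in Paneth-like cells. In Paneth-like cells the median of all genes tested was 0.891 for that comparison, and 71.2% of them had a ratio under 1. H2-Ab1 had a B + A 10 over B + A 0 ratio of 1.33 in ileal enterocyte-like and 0.552 in Paneth-like cells. H2-Eb1 had a B + A 0 over AOS 0 ratio of 1.18 in cycling crypt-like and 0.255 in T cell-like cells, and its B + A 10 over B + A 0 ratio was 1.72 in mid enterocyte-like and 0.139 in enteroendocrine-like cells. Cd74 stood at 1.61 in mid enterocyte-like and 0.730 in enteroendocrine-like cells in that last comparison. The enteroendocrine-like class holds 153 cells, and the T cell-like value of AOS 0 rests on few cells without a Cd3 UMI.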

How the results depend on the processing

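No paired analysis was possible because each group is 1 library. The reported ratios of class II in stem-like over mature enterocyte-like cells (1.21, 1.34 and 1.25) became 2.27, 2.37 and 2.0 at resolution 0.4, 1.33, 1.43 and 1.41 at resolution 1.5, 1.32, 0.891 and 1.18 without joining, 1.34, 1.48 and 1.35 as means over cells, 1.65, 1.83 and 1.73 on the scale without ribosomal protein, mitochondrial and defensin genes, and 1.59, 1.67 and 1.45 for the stem-like cluster without the cycling one, an alternative chosen after seeing the data. In AOS 0 and B + A 0 they were 1.26 and 1.55 with the antigen presentation genes kept for clustering and 1.28 and 1.60 with thinned cells. Class I in mature over stem-like cells became 1.91, 1.86 and 2.05, 2.81, 2.52 and 2.70, 2.75, 3.56 and 3.28, 2.60, 2.31 and 2.54, 1.96, 1.76 and 1.88, and 2.31, 2.16 and 2.35 under these in turn, 2.43, 2.23 and 2.46 with the genes kept, and 2.44 in B + A 10 with thinned cells. The stem-like class II ratio of B + A 0 over AOS 0 was 0.645 and 0.709 at the 2 resolutions, 0.611 without joining, 0.729 with the genes kept, 0.746 thinned and 0.641 without the cycling cluster. That of B + A 10 over B + A 0 was 1.01 at resolution 0.4 and without the cycling cluster, and turned to 0.987 without joining, 0.959 with the genes kept and 0.991 thinned. The mature class I ratios were 0.797 at resolution 0.4 (B + A 0 over AOS 0), 1.05 and 0.844 without joining (both reversed) and 0.995 thinned (B + A 10 over B + A 0). For B + A 10 over B + A 0, class II was 1.36 in mid enterocyte-like cells with the genes kept, and 1.44, 1.45 and 1.49 in ileal enterocyte-like cells at resolution 1.5, with the genes kept and thinned, where B + A 0 over AOS 0 was 0.508 thinned. Without joining, where the mature class held 43, 5 and 23 cells, these also reversed: mature class II B + A 10 over B + A 0 (0.743), H2-Eb1 stem-like over mature in B + A 0 (0.675), H2-DMb1 stem-like over mature in AOS 0 (1.14), and mature B2m (1.12) and H2-D1 (1.09) B + A 0 over AOS 0. Mature H2-Eb1 (0.785 to 4.57), H2-DMa (0.805 to 1.52) and H2-DMb1 (0.724 to 1.14) also crossed 1 there, from ratios whose intervals held 1. H2-Q1 in mid enterocyte-like cells stood at 1.00 at resolution 0.4. The cause of these shifts was not tested. Tuft-like and enteroendocrine-like cells were too few for small differences.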
